A study of Mus musculus with 11 samples.

Results

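Genes of glutamate uptake and the glutamine cycle were compared among astrocytes of 4 brain regions. The 9 genes were chosen by name for their roles, out of 24421 gene entries in each sample. No rule on measured values was used, but earlier results of these data were known. They are the glutamate transporters Slc1a2 and Slc1a3, the neutral amino acid transporters Slc1a4 and Slc1a5, the glutamine-making enzyme Glul, the glutamate-degrading enzyme Glud1, the glutamine transporters Slc38a3 and Slc38a5, and the aminotransferase Got1. All 9 passed the filter on low counts.

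The cells came from Aldh1l1-eGFP mice, 16 weeks of age and on a C57BL/6 background, which carry a bacterial artificial chromosome that places eGFP under the control of the astrocyte gene Aldh1l1. Males and females were used, and the labels do not give the sex or the animal behind a sample. Brain tissue was dissociated, eGFP-positive cells were collected by fluorescence-activated cell sorting, and RNA-Seq libraries were made from 5 ng of total RNA with depletion of ribosomal RNA. There were 3 samples from the olfactory bulb (OB), 3 from the hippocampus (HC), 2 from the cortex (CX) and 3 from the brainstem (BS), all untreated. Since the labels do not tie samples to separate animals, p-values measure the spread between these samples, which may be technical in part.

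Astrocytes clear glutamate from the synaptic cleft with sodium-coupled transporters, of which GLT-1 (Slc1a2) and GLAST (Slc1a3) do most of the work. Inside the astrocyte, glutamine synthetase (Glul) joins ammonia to glutamate, and the glutamine leaves through system N transporters such as SNAT3 (Slc38a3) for uptake by neurons, which turn it back into glutamate. Glutamate can instead enter the tricarboxylic acid cycle as alpha-ketoglutarate, through glutamate dehydrogenase (Glud1) or through aminotransferases such as the cytosolic aspartate aminotransferase (Got1).

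The promoters of Slc1a3, Glul and Got1 are shown because the first 2 genes were low in BS and the third was high there. Each runs from 250 bases before to 50 bases after the start annotated by RefSeq on GRCm38.p6, 5′ to 3′ on the strand of the gene, with capitals at each TTGGC or its reverse complement GCCAA, the short core recognised by nuclear factor I.
Slc1a3, chr15:8710758-8711057, minus strand: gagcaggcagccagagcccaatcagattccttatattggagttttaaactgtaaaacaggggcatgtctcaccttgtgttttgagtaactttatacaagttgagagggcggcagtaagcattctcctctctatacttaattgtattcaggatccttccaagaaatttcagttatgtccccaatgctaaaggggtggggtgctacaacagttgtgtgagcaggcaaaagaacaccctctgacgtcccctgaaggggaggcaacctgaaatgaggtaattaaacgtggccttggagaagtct
Glul, chr1:153899679-153899978, plus strand: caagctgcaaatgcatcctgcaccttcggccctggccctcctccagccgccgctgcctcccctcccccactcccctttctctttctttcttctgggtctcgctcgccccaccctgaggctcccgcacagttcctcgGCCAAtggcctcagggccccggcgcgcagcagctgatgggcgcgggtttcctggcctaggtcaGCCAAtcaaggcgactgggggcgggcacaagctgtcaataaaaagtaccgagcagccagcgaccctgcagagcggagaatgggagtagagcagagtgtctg
Got1, chr19:43524556-43524855, minus strand: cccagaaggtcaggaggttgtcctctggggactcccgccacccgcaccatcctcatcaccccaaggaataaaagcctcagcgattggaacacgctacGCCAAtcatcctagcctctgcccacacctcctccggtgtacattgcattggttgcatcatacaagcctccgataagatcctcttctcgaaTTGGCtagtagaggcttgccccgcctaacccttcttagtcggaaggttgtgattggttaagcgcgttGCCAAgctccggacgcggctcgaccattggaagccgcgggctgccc
The Slc1a3 window held none of these, Glul held 2, at -114 and -51 from the start, and Got1 held 3, at -153, -63 and 4. The core was present on either strand in 46.7% of the 32851 promoters searched, so that its presence was common. Several matches overlap a CCAAT box, which was present in 37.4% of promoters. The sequence TTCNNNGAA, bound by STAT factors, was found in the Slc1a3 window at -96 and in 8.30% of all windows. The windows also differed in composition, with 3 CpG dinucleotides in Slc1a3, 17 in Glul and 18 in Got1 against a median of 7 over all promoters. Promoters were matched for 7 of the 9 genes, and such matches describe letters only.

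Each value below is a normalized read count, the reads of a gene divided by 1 size factor per sample. Between 2830746 and 14151670 reads per sample fell on genes, with a median of 5552215. A single read was worth between 0.367 and 2.10, and the detection floor, set at 3 reads, lay at values of 1.101 to 6.31 depending on the sample, which covers counting error only. The ribosomal gene Rn45s took 0.966 to 2.93% of the reads in OB and HC and 18.0 to 25.6% in CX and BS. All 8 astrocyte markers were above the floor in every sample. Their summed values ranged from 46051 to 51634 in OB, 35161 to 53504 in HC, 57372 to 60976 in CX and 34153 to 71973 in BS, and 1 of the 8 differed among regions. Markers of other cells were also present. The 6 oligodendrocyte markers summed to 50244 to 86261 in BS and to at most 38027 elsewhere, and all 6 differed among regions. The 5 choroid plexus markers summed to 69049 to 140120 in HC and 49535 to 233148 in BS, against at most 4686 in CX and 255 in OB, where Folr1 was listed at 0. Neuronal markers summed to between 1316 and 3732 in all samples. The 8 endothelial and pericyte markers summed to between 675 and 4064, the 6 microglial markers to between 779 and 3052, and the 2 oligodendrocyte precursor markers to between 118 and 226. Of the 3 ependymal markers 1 was abundant enough to be tested, and their sum reached 320 in BS. In these bulk samples a smaller share of a cell type and less RNA per cell cannot be told apart.

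Across the 4 regions, 5 of the 9 genes differed at an adjusted p under 0.05, namely Slc1a3, Slc38a3, Glul, Got1 and Slc1a5. The background was 16.5% of the 13875 genes tested with limma's F test. Between pairs of regions, 10 of 54 comparisons passed, against a background of 7.29%, and 8 of the 10 involved the BS. The number of these 9 genes that differed was 3 without OB replicate 2, where 1737 of all 13721 genes tested passed. Without BS replicate 2 it was 9, where 2871 of 13796 passed, and the pair calls were then 22. Both counts include Slc38a5, which passed the filter on low counts through its BS reads and is only described. The background of the pairs rose there too, between OB and BS from 2075 of 13875 genes to 2526 of 13796. The plot of values by sample shows Slc1a3 and Glul lowest in BS and Got1 and Slc38a5 highest there, with Slc38a3 and Slc1a5 highest in OB.

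**Figure D1:**
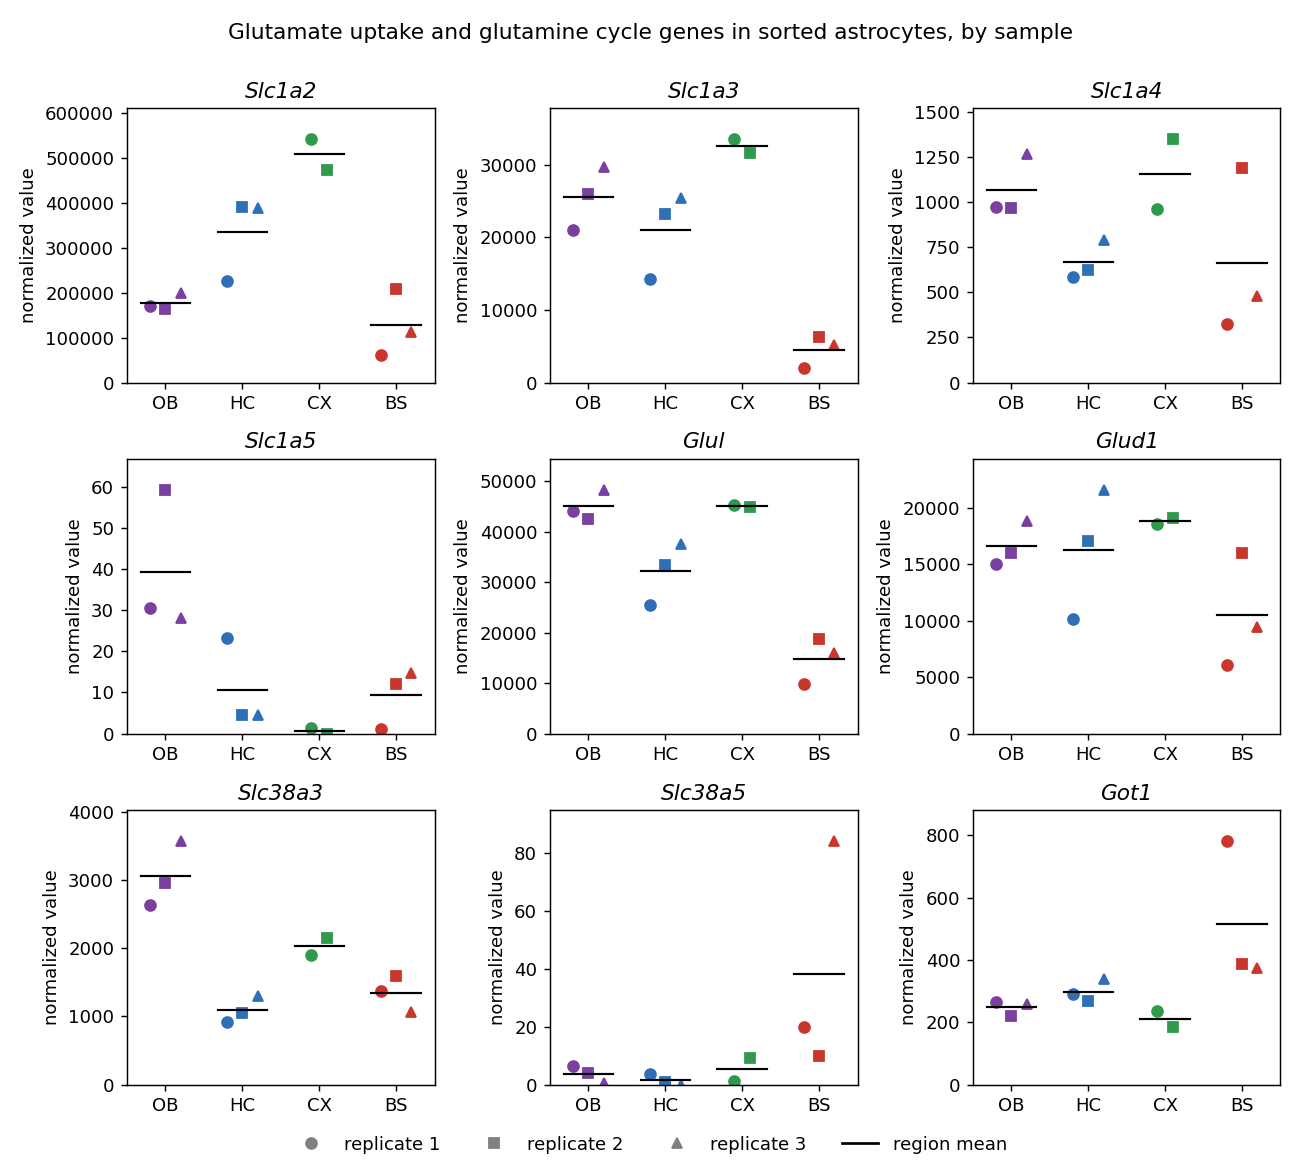
Normalized values (linear axes from 0, reads divided by a size factor) of the 9 genes in each sample of the OB, HC, CX and BS; marker shapes give the replicate number and black bars the region mean. The 3 BS samples lie below all others for Slc1a3 and Glul and above all others for Got1 and Slc38a5, and the 3 OB samples lie above all others for Slc38a3 and Slc1a5.

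Slc1a2 encodes GLT-1, the main glutamate transporter of the adult forebrain. It lies on chromosome 2 (GRCm38, 102658659 to 102790784, plus strand), and its exons overlap the antisense gene Gm13872, whose reads cannot be told apart because the use of strand in counting is not given in the sources used here. Slc1a2 was the most abundant gene apart from Rn45s in 10 of the 11 samples and ranked 3 in BS replicate 1. It took 8.83 to 9.72% of the reads without Rn45s in CX and 1.42 to 4.10% in BS.

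In CX, the normalized values of Slc1a2 were 541892 and 472464. In HC they were 225027, 389770 and 387844, and in OB 169532, 162749 and 199406. In BS they were 61764, 208927 and 113316. Both CX samples lay above the other 9, while BS replicate 2 lay above all 3 OB samples, so that the OB and BS overlapped. Of all genes, 5.02% had both CX samples above the others. The region means were 507178 ± 49093 (SD, n = 2) in CX, 334214 ± 94563 (SD, n = 3) in HC, 177229 ± 19503 (SD, n = 3) in OB and 128002 ± 74672 (SD, n = 3) in BS. This 3.96-fold span of the means did not pass the test among regions (adjusted p = 0.165, limma), and no neighbouring pair in the order CX, HC, OB, BS did. The difference between CX and BS, 2.16 (SE 0.75) on the log2(value + 1) scale, had an adjusted p of 0.0816. This pair did pass with edgeR (adjusted p = 0.0129), DESeq2 (3.6e-06), totals that exclude Rn45s (0.0152), no mean-variance trend (0.0247) and without BS replicate 2 (0.00391). Slc1a2 did pass among regions on the recovered reads (adjusted p = 0.0201 with edgeR and 8.8e-07 with DESeq2), with totals that exclude Rn45s (adjusted p = 0.0257) and without a mean-variance trend (adjusted p = 0.0436). Without BS replicate 2 the adjusted p was 0.00896. The test among regions and that between CX and BS each passed in 7 of 22 alternative settings and missed in the rest.

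BS replicate 2 was the highest BS sample for Slc1a2, Slc1a3, Slc1a4, Glul and Glud1, and it had the highest sum of astrocyte markers in the series, 71973. BS replicate 1 had the lowest sum, 34153, and was the lowest BS sample for the same 5 genes. Values were therefore also divided by the geometric mean of the 8 astrocyte markers in the same sample, a scaling added after the values were seen. On this scale Slc1a2 was 137 and 124 times the marker level in CX, 86.1, 108 and 97.9 times in HC, 47.2, 47.4 and 51.0 times in OB, and 24.9, 44.9 and 35.6 times in BS. No 2 regions overlapped, in the order CX, HC, OB, BS. Glul did not overlap between regions on this scale either, in the order OB, CX, HC, BS. The pattern is thus not particular to Slc1a2, and how many of all genes separated the regions was not counted. The adjusted p among regions was 6.0e-06 with this scaling in limma. Of all 13875 genes tested, 1573 passed among regions with this scaling, against 2285 without it. The markers themselves can differ between regions, and their part in the result was not tested.

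**Figure D2:**
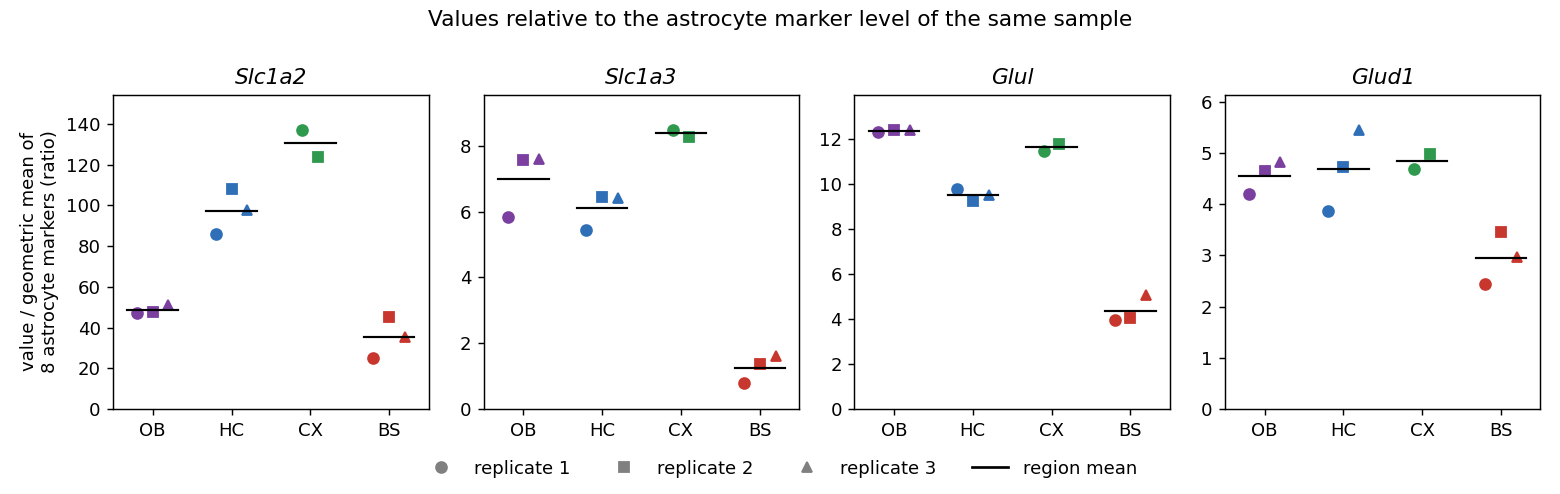
Values of Slc1a2, Slc1a3, Glul and Glud1 in each sample divided by the geometric mean of 8 astrocyte markers of that sample (ratio, linear axes from 0), with region means as black bars. Slc1a2 separates all 4 regions, from 24.9 to 44.9 in BS up to 124 and 137 in CX. Glul also separates all 4, in the order OB, CX, HC, BS, and for all 4 genes the BS samples lie lowest.

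Slc1a3 encodes GLAST, the other astrocyte glutamate transporter, which is prominent in radial glia and Bergmann glia. The gene is on chromosome 15 (GRCm38, 8634124 to 8710764, minus strand). Slc1a3 had values of 1953, 6315 and 5142 in BS. In OB the values were 21010, 25941 and 29652, in HC 14218, 23260 and 25407, and in CX 33551 and 31576. All 3 BS samples lay below the other 8, a pattern found for 4.19% of all genes in BS, and the CX samples lay above all others.

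Slc1a3 was 6.22-fold lower in BS than in the other samples (log2 fold change -2.64, SE 0.34, adjusted p = 0.000479, limma). Against each region separately the BS was lower as well. The difference was 3.03 (SE 0.42, adjusted p = 0.000283) from the CX, 2.66 (SE 0.38, adjusted p = 0.000185) from the OB and 2.35 (SE 0.38, adjusted p = 0.00143) from the HC. The OB, HC and CX did not pass against each other. Slc1a3 kept its calls against the BS and among regions under every alternative run. Relative to the astrocyte marker level Slc1a3 was 0.789, 1.36 and 1.61 in BS and between 5.44 and 8.49 in the other regions. The rank of Slc1a3 among all genes was 9 to 20 outside the BS and 65 to 229 in BS.

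The members called in the BS against the other samples, by the study's thresholds (unadjusted p under 0.01, a change beyond 1.5-fold and values above 5 in 2 or more samples of a region), were Slc1a3 and Glul, which were lower, and Got1, which was higher. These are 3 of the 8 genes other than Slc38a5, with a background of 9.03% of genes called, 5.05% lower and 3.98% higher. Slc38a5 was past the thresholds too, which makes 4, but it passed the filter on low counts through its BS reads and is therefore only described. The minimum of 5 was applied to the deposited values, whereas the study states it as RPM, the reads of a gene scaled to a fixed library total. With a minimum of 5 RPM in its place, a setting added after the values were seen, Slc38a5 was not called, the other 3 were, and the background was 8.30%. With an adjusted p under 0.05 in place of these thresholds the same 3 genes were called, and 5.42% of all genes. Leaving out BS replicate 1 reduced the 4 calls to 2, Slc1a3 and Glul. Got1 lost its call there, and Slc38a5 fell under the filter and was not tested. Of all genes, 802 of 13737 were then called, against 1253 of 13875 with all samples. The median log2 fold change was -0.67 over the 9 genes and -0.72 without Slc38a5, against 0.02 over all 13875 genes. In the same contrast 3 of the 6 oligodendrocyte markers were higher and none of the 8 astrocyte markers was called. The part of oligodendrocyte RNA in these results was not tested. Choroid plexus markers were high in BS and in HC alike, and none of the 5 was called in BS.

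**Figure D3:**
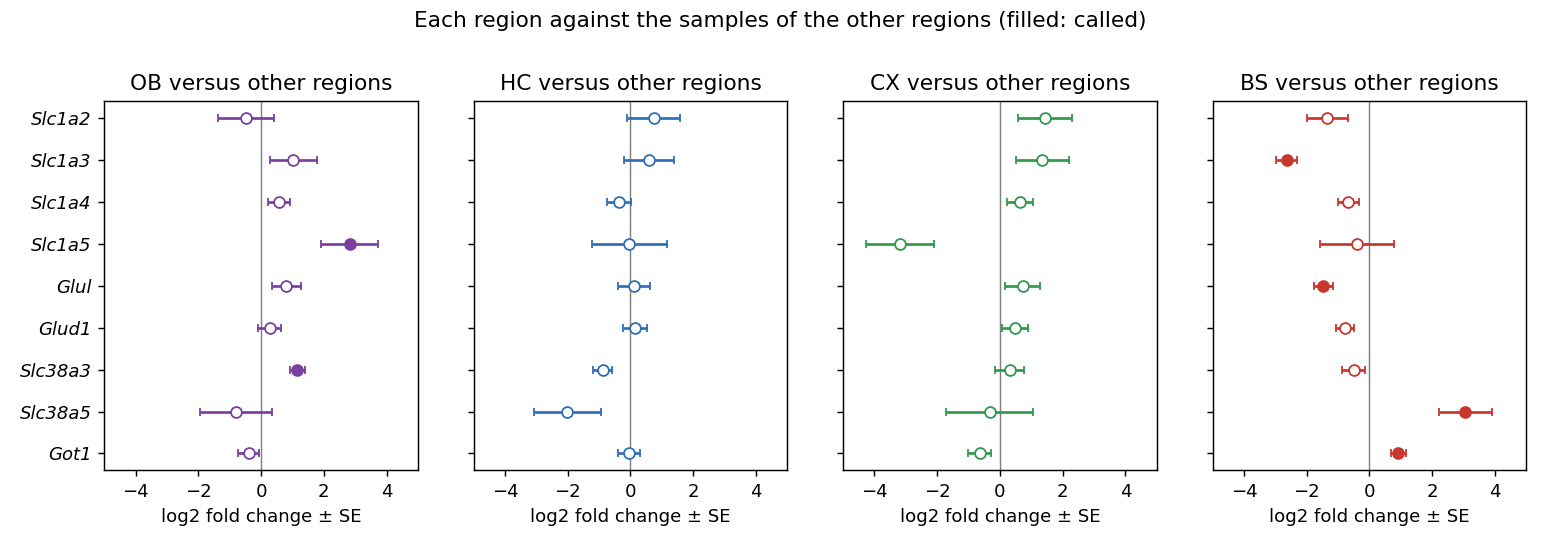
Log2 fold changes of the 9 genes for each region against the samples of the other regions (points, with bars of 1 standard error, from limma on log2(value + 1)); filled points pass the study's thresholds. Slc1a3 at -2.64 and Glul at -1.46 are filled on the low side of the BS, Got1 and Slc38a5 on its high side, and Slc38a3 and Slc1a5 on the high side of the OB.

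Slc1a4 encodes ASCT1, an exchanger of serine, alanine and other neutral amino acids. Located on chromosome 11 (GRCm38, 20302180 to 20332713, minus strand), Slc1a4 had values of 971, 965 and 1263 in OB, 584, 625 and 787 in HC, 962 and 1349 in CX, and 324, 1188 and 478 in BS. The BS samples spanned nearly the whole range of the series, and the gene did not pass among regions (adjusted p = 0.135, limma). Without BS replicate 2 it passed (adjusted p = 0.00079), with both the OB and the CX above the BS.

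Slc1a5 encodes ASCT2, a glutamine and neutral amino acid exchanger. Its locus is on chromosome 7 (GRCm38, 16781340 to 16798274, plus strand) and was rare in all regions. Slc1a5 rested on 28, 75 and 52 reads in OB, on 37, 5 and 12 in HC, on 1 and 0 in CX and on 1, 6 and 7 in BS. As normalized values these were 30.4, 59.2 and 28.0 in OB, 23.1, 4.57 and 4.40 in HC, 1.26 and 0 in CX, and 1.05, 12.02 and 14.7 in BS. The OB samples lay above all others, as for 4.93% of genes, and both CX samples were under the floor of 3 reads.

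Slc1a5 differed among regions (adjusted p = 0.0249, limma), and between the OB and CX by 4.66 (SE 1.00, adjusted p = 0.0126), a fitted value that depends on the pseudocount because 1 read was counted in CX. In the OB against the other samples Slc1a5 met the study's thresholds at 2.82 (SE 0.90, unadjusted p = 0.00724, adjusted p = 0.0999952 with limma). These calls depended on single samples. The call among regions was lost when any OB sample or either CX sample was left out (adjusted p between 0.0535 and 0.110). The difference between OB and CX was lost without OB replicate 2 (adjusted p = 0.0658), CX replicate 1 (0.0611) or CX replicate 2 (0.129), where a lone CX sample is assumed to vary like the other groups. The call in OB was lost with edgeR, with a pseudocount of 0.25, with a replicate block, and without any single OB sample, HC replicate 2 or 3, CX replicate 1 or BS replicate 1 (unadjusted p between 0.0109 and 0.0418).

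Glul encodes glutamine synthetase, the enzyme that makes glutamine from glutamate and ammonia and a marker of astrocytes. It lies on chromosome 1 (GRCm38, 153899944 to 153909723, plus strand) and its exons overlap Teddm2 on the opposite strand and the microRNA gene Mir8114. Glul had values of 9830, 18703 and 16055 in BS. The values were 25508, 33423 and 37600 in HC, 44189, 42567 and 48330 in OB, and 45360 and 44921 in CX. The BS samples were the 3 lowest, and the HC samples lay between them and those of the OB and CX without overlap.

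Glul was 2.75-fold lower in BS than in the other samples (log2 fold change -1.46, SE 0.29, adjusted p = 0.00999, limma). It was lower in BS by 1.65 against the OB (SE 0.31, adjusted p = 0.00216) and by 1.65 against the CX (SE 0.35, adjusted p = 0.00648). Against the HC the difference of 1.15 (SE 0.31) just missed the threshold (adjusted p = 0.0505), and it passed with edgeR (adjusted p = 0.0245). It passed also with a replicate block (adjusted p = 0.0477) and without HC replicate 1 (0.0374) or BS replicate 2 (0.00888). In all, this difference passed in 8 of 22 alternative settings. The difference from the CX was lost when either CX sample was left out (adjusted p = 0.0848 and 0.0698). The OB and CX means, 45029 ± 2972 (SD, n = 3) and 45141 ± 311 (SD, n = 2), differed by -0.01 (SE 0.35) on the log2 scale. On the scale of the astrocyte markers Glul was 3.97, 4.02 and 5.04 in BS, 9.25 to 9.76 in HC, 11.47 and 11.75 in CX and 12.3 to 12.4 in OB.

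Glud1 encodes glutamate dehydrogenase, the mitochondrial enzyme that turns glutamate into alpha-ketoglutarate and ammonia. Located on chromosome 14 (GRCm38, 34310727 to 34345265, plus strand), Glud1 had values of 15081, 15987 and 18840 in OB, 10122, 17112 and 21618 in HC, 18571 and 19084 in CX, and 6056, 16041 and 9476 in BS. The regions overlapped, and the gene did not pass among them (adjusted p = 0.243, limma). In the BS against the other samples the difference was -0.78 (SE 0.29, adjusted p = 0.141). Without BS replicate 2 (-1.14, adjusted p = 0.0340) and without HC replicate 1 (-0.88, adjusted p = 0.0591) it met the study's thresholds. It did so also relative to the astrocyte markers, on which scale Glud1 was 2.45 to 3.45 in BS and 3.87 to 5.46 elsewhere.

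Slc38a3 encodes SNAT3, the system N transporter through which astrocytes release glutamine. It lies on chromosome 9 (GRCm38, 107650634 to 107669530, minus strand). Slc38a3 had values of 2639, 2952 and 3578 in OB, 1900 and 2157 in CX, 1369, 1589 and 1071 in BS, and 922, 1054 and 1303 in HC. The OB samples were the 3 highest and the CX samples came next without overlap, while the HC and BS overlapped.

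Slc38a3 was 2.22-fold higher in OB than in the other samples (log2 fold change 1.15, SE 0.24, adjusted p = 0.0138, limma). With Slc1a5 it made 2 of 9 genes called in OB, both higher, where 8.04% of all genes were called and 4.15% were higher. Of the pair, Slc38a3 also passed an adjusted p under 0.05 there, which 4.58% of all genes did. The OB exceeded the HC by 1.49 (SE 0.19, adjusted p = 0.000178) and the BS by 1.19 (SE 0.19, adjusted p = 0.000591). Its difference from the CX, 0.58 (SE 0.22, adjusted p = 0.162), did not pass. The HC lay below the CX by a difference of -0.90 (SE 0.22) that just missed the threshold (adjusted p = 0.0556). This difference passed in 3 of 22 alternative settings, with DESeq2 and without BS replicate 1 (adjusted p = 0.0446) or BS replicate 2 (0.0249). The calls of Slc38a3 among regions and in OB, by the study's thresholds, were kept under every alternative run.

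Slc38a5 encodes SNAT5, a second system N transporter. It lies on the X chromosome (GRCm38, 8271133 to 8280179, plus strand) and was at or near the floor outside the BS. Slc38a5 rested on 19, 5 and 40 reads in BS, 6, 5 and 1 in OB, 6, 1 and 0 in HC and 1 and 6 in CX. As normalized values it was 19.97, 10.02 and 84.2 in BS, 6.52, 3.95 and 0.539 in OB, 3.75, 0.913 and 0 in HC, and 1.26 and 9.20 in CX. The BS samples lay above all others, as for 3.70% of genes, with BS replicate 3 far above the other BS samples. However, BS replicate 2, at 10.02 on 5 reads, lay barely above CX replicate 2, at 9.20 on 6 reads. As RPM these BS values were 3.42, 1.61 and 14.1. The fitted log2 difference between the BS and the other samples was 3.06 (SE 0.85). It is given without a test, because Slc38a5 fell under the filter on low counts when the BS samples, or BS replicate 1 or 3 alone, were left out.

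Got1 encodes the cytosolic aspartate aminotransferase, which exchanges amino groups between glutamate and oxaloacetate and takes part in the malate-aspartate shuttle. Located on chromosome 19 (GRCm38, 43499752 to 43524605, minus strand), Got1 had values of 782, 387 and 375 in BS, 289, 267 and 337 in HC, 264, 220 and 260 in OB, and 236 and 186 in CX. All BS samples lay above the other 8, with BS replicate 1 far above the other two.

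Got1 was 1.90-fold higher in BS than in the other samples (log2 fold change 0.93, SE 0.23, adjusted p = 0.0316, limma). It differed among regions (adjusted p = 0.0235), with the BS above the CX by 1.21 and above the OB by 0.97 (adjusted p = 0.0133 and 0.0180). The call in BS depended on replicate 1. Without it the log2 fold change was 0.58 (adjusted p = 0.202) and the adjusted p among regions was 0.0651. The call among regions was lost also without OB replicate 2 (adjusted p = 0.0501), without CX replicate 2 (0.0695), without a mean-variance trend (0.108) and relative to the astrocyte markers (0.117). The difference from the OB was lost without OB replicate 2 (adjusted p = 0.0755) or BS replicate 1 (0.0721), and that from the CX without CX replicate 1 (0.0532) or 2 (0.136).

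In the HC against the other samples 0 of 9 genes met the study's thresholds in limma, against 1.28% of all genes, and 0 of 9 did in CX, against 2.77%. At an unadjusted p under 0.05, Slc38a3 alone was lower in HC and Slc1a5 alone in CX. With edgeR the counts were also 0, while DESeq2 called Slc38a3 in HC and Slc1a5 in CX. The count in HC was 1 without BS replicate 1 or 3, and that in CX was 1 without HC replicate 2, HC replicate 3 or BS replicate 1. Between the HC and CX 0 of 9 genes passed in limma and in edgeR, with 2 under an unadjusted p of 0.05, and DESeq2 called Slc38a3. The other pairs gave 4 of 9 between OB and BS (background 15.0%), 3 between CX and BS (10.9%), and 1 each between HC and BS (4.63%), OB and CX (4.91%) and OB and HC (7.11%). The background between HC and CX was 1.23%.

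Levels of different genes were compared per kilobase of exon in the GENCODE annotation. The authors counted reads on UCSC transcripts, so the order of genes with close levels depends on the lengths used. In OB, the level per kilobase was 16128 ± 1064 (SD, n = 3) for Glul and 14657 ± 1613 (SD, n = 3) for Slc1a2. In CX the order was the opposite, with 41943 ± 4060 (SD, n = 2) for Slc1a2 and 16168 ± 111 (SD, n = 2) for Glul. Slc1a2 was also the higher of this pair in HC, at 27639 per kilobase against 11525, and in BS, at 10586 against 5323. Slc1a3 and Glud1 followed in all regions. Slc1a3 was above Glud1 in OB and CX, close to it in HC (4760 against 4804 per kilobase), and below it in BS (1015 against 3104). Slc38a3 lay between 307 and 859, Slc1a4 between 169 and 294, Got1 between 102 and 250 per kilobase as region means, and Slc1a5 and Slc38a5 were at most 17.1.

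Ratios of 2 genes within a sample do not depend on the size factor, and 4 such ratios were tested. They were chosen with earlier results of these data known. The ratio of Slc1a2 to Slc1a3 values was 8.07, 6.27 and 6.72 in OB, 15.8, 16.8 and 15.3 in HC, 16.2 and 15.0 in CX, and 31.6, 33.1 and 22.0 in BS. The OB samples lay below and the BS samples above all others, and the HC and CX overlapped. Regions differed in an exact permutation test over 92400 assignments of samples to regions (p = 0.00104, adjusted over the 4 ratios 0.00416). The OB differed from the other samples by -1.50 on the log2 scale (exact permutation test, two-sided p = 0.00606, the smallest it can give, adjusted over 16 comparisons 0.0242). The BS differed by 1.29 (exact permutation p = 0.0121, adjusted 0.0388). Thus GLAST mRNA was lower relative to GLT-1 mRNA in BS and higher in OB.

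The ratio of Glul to Glud1 values was 2.93, 2.66 and 2.57 in OB, 2.52, 1.95 and 1.74 in HC, 2.44 and 2.35 in CX, and 1.62, 1.17 and 1.69 in BS. The BS samples were the 3 lowest and the OB samples the 3 highest. The ratio differed among regions (exact permutation p = 0.00721, adjusted 0.00961), and the BS lay below the other samples by a log2 difference of -0.68 (exact permutation p = 0.00606, the smallest possible, adjusted 0.0242).

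The ratio of Glul to Slc1a2 values was 0.261, 0.262 and 0.242 in OB and between 0.0837 and 0.159 in the other 8 samples. Per kilobase Glul exceeded Slc1a2 in all 3 OB samples, by 1.05 to 1.13 times, and in no sample of another region. This small margin depends on the exon lengths used, 12092 bases for Slc1a2 and 2792 for Glul. Other lengths were not tried. The ratio differed among regions (exact permutation p = 0.00461, adjusted 0.00922), and the OB lay above the other samples by 1.27 on the log2 scale (exact permutation p = 0.00606, the smallest possible, adjusted 0.0242).

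The log2 ratio of Slc38a3 to Slc38a5, after 1 was added to each value, was 5.62 ± 1.80 (SD, n = 3) in BS, 8.72 ± 1.41 (SD, n = 2) in CX, 9.02 ± 1.38 (SD, n = 3) in HC and 9.62 ± 1.41 (SD, n = 3) in OB. The regions did not pass (exact permutation p = 0.0507, adjusted 0.0507). No conclusion is drawn from this test, because Slc38a5 passed the filter on low counts through its BS reads. The 3 BS samples were the lowest, which is given without a test for the same reason. Without BS replicate 2 the exact permutation p among regions was 0.0448, under the same limit. Because Slc38a5 rested on 0 to 6 reads outside the BS, the size of this ratio there depends on the pseudocount.

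**Figure D4:**
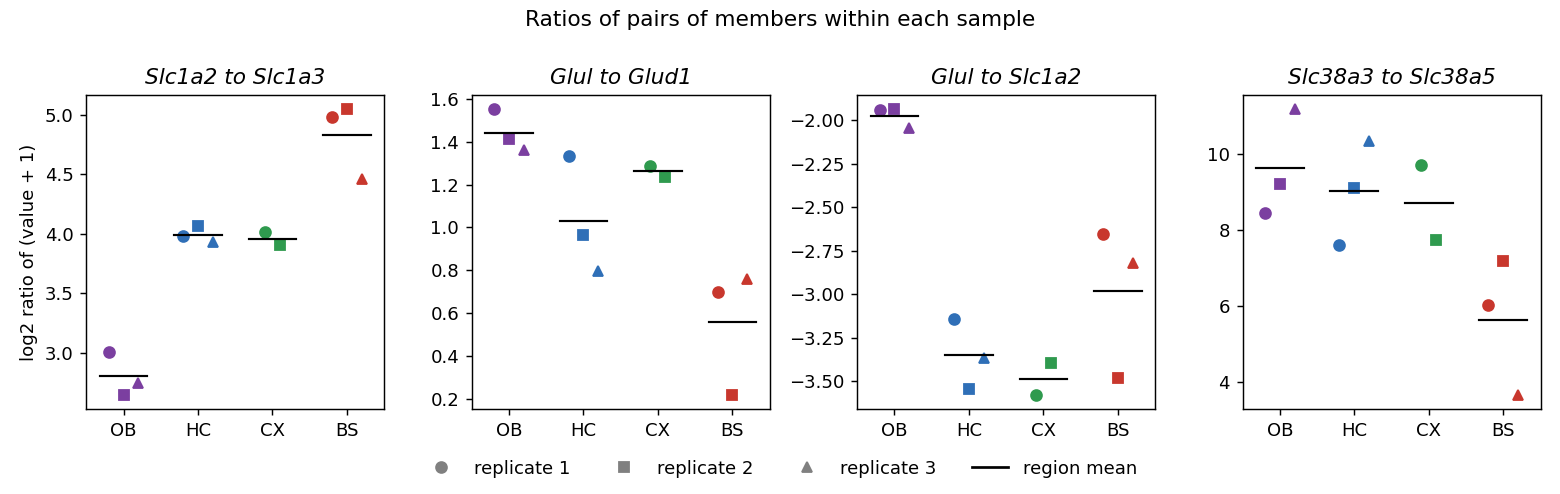
Log2 ratios of (value + 1) for 4 pairs of genes within each sample (axes do not start at 0), by region, with region means as black bars and marker shapes for the replicate number. Slc1a2 to Slc1a3 rises from a mean of 2.80 in OB to 4.83 in BS, Glul to Glud1 is lowest in BS at 0.56, and Glul to Slc1a2 is highest in OB at -1.97.

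Other genes of glutamate and glutamine handling were taken from a list of 32, of which 27 passed the filter on low counts. Slc1a6, Slc1a7, Slc17a8 and Gls2 were too rare to be tested, and Pc was not analysed here. Among the 4 regions 13 of the 27 differed at an adjusted p under 0.05 with limma, against the background of 16.5%. This count was 5 without a mean-variance trend, where 1552 of all 13875 genes passed. It was 8 without the filter on low counts, where 2112 of 18385 passed. Without any single OB sample it was also 8 (1681 to 1738 of all genes), and 7 without BS replicate 3 (1743 of 13752). In the BS against the other samples, 3 met the study's thresholds as higher (Slc38a1, Got2 and Bcat1) and 3 as lower (Slc7a11, Oat and Slc17a7). Of all genes 9.03% were called there. In OB 2 were higher (Gad1 and Gpt2) and 1 lower (Mdh1), in HC Kcnj10 was lower, and in CX Slc38a1, Slc17a6 and Slc25a13 were lower. The shares of all genes were 8.04% in OB, 1.28% in HC and 2.77% in CX. Several of these calls depended on single samples. Bcat1 lost its call in BS without BS replicate 3 (unadjusted p = 0.0435, limma), and Slc25a13 lost its call in CX without CX replicate 2 (unadjusted p = 0.0659). Kcnj10 lost its call in HC when any HC sample was left out (unadjusted p between 0.0102 and 0.0352). Slc17a6 lost its call in CX without OB replicate 2, HC replicate 2, either CX sample or any BS sample (unadjusted p between 0.0106 and 0.0666). For Slc38a1 in CX the same held without OB replicate 2, either CX sample or BS replicate 2 (unadjusted p between 0.0103 and 0.0491), with a replicate block (0.0115) and without a mean-variance trend (0.0143). Mdh1 kept its call in OB when HC replicate 2 or CX replicate 2 was left out and lost it without any other sample, with edgeR and with TMM scaling.

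Slc38a1, which encodes the glutamine importer SNAT1 found mainly in neurons, had values of 834, 777 and 970 in BS, 425, 675 and 420 in OB, 374, 333 and 215 in HC, and 173 and 190 in CX. All BS values of Slc38a1 lay above the others, as for 3.70% of genes. Both CX values lay below the others, and the share of all genes with that pattern is not given here. Slc38a1 was 2.68-fold higher in BS than elsewhere (log2 fold change 1.42, SE 0.34, adjusted p = 0.0287, limma). Got2, the mitochondrial partner of Got1, had a value of 532 ± 228 (SD, n = 3) in BS and 186 ± 60.2 (SD, n = 3) in OB, with a log2 fold change of 1.12 (SE 0.35, adjusted p = 0.0834, limma). Got2 thus met the study's thresholds and not an adjusted p under 0.05. It kept its call without OB replicate 1, HC replicate 1, HC replicate 3 or BS replicate 2, and lost it without any other sample (unadjusted p between 0.0111 and 0.0633). The 9 neuronal markers included 2 that were higher and 3 that were lower in BS, and their part in these values was not tested.

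Slc7a11, the cystine-glutamate exchanger that releases glutamate from astrocytes, had values of 635, 1290 and 714 in BS. It had values of 2033, 1580 and 2269 in OB, 1587, 2315 and 2438 in HC, and 2941 and 2469 in CX. The BS samples were the 3 lowest and the CX samples the highest, and the gene was 2.58-fold lower in BS (log2 fold change -1.37, SE 0.23, adjusted p = 0.00337, limma). Oat, an enzyme that links ornithine to glutamate, was 1.63-fold lower in BS (adjusted p = 0.00873, limma). Slc17a7, the vesicular glutamate transporter of forebrain neurons, was at 15.2 ± 5.35 (SD, n = 3) in BS and at 180 ± 52.7 (SD, n = 2) in CX. Slc1a1, the neuronal glutamate transporter EAAC1, lay between 47.5 and 98.7 as region means and did not pass among regions (adjusted p = 0.573, limma).

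In OB, Gpt2, the mitochondrial alanine aminotransferase, was 2.06-fold higher than elsewhere (log2 fold change 1.05, SE 0.20, adjusted p = 0.00845, limma). Gad1, which makes GABA from glutamate in inhibitory neurons, had a value of 378 ± 87.8 (SD, n = 3) in OB and at most 48.0 as a mean elsewhere. The potassium channel gene Kcnj10 was highest in OB at 31194 ± 3956 (SD, n = 3) and lowest in HC at 10328 ± 2342 (SD, n = 3). Of the other genes that differed among regions, Atp1b2 (a sodium pump subunit), Mdh1 (cytosolic malate dehydrogenase) and Slc17a6 (a vesicular glutamate transporter) had their highest mean in BS. Slc25a18, a mitochondrial glutamate carrier, had its highest in OB. Atp1b2, Mdh1 and Slc25a18 lost their calls among regions without any single OB sample, without the filter, without a trend and in further settings. Slc17a6 lost its call among regions without CX replicate 1 or BS replicate 3.

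**Figure D5:**
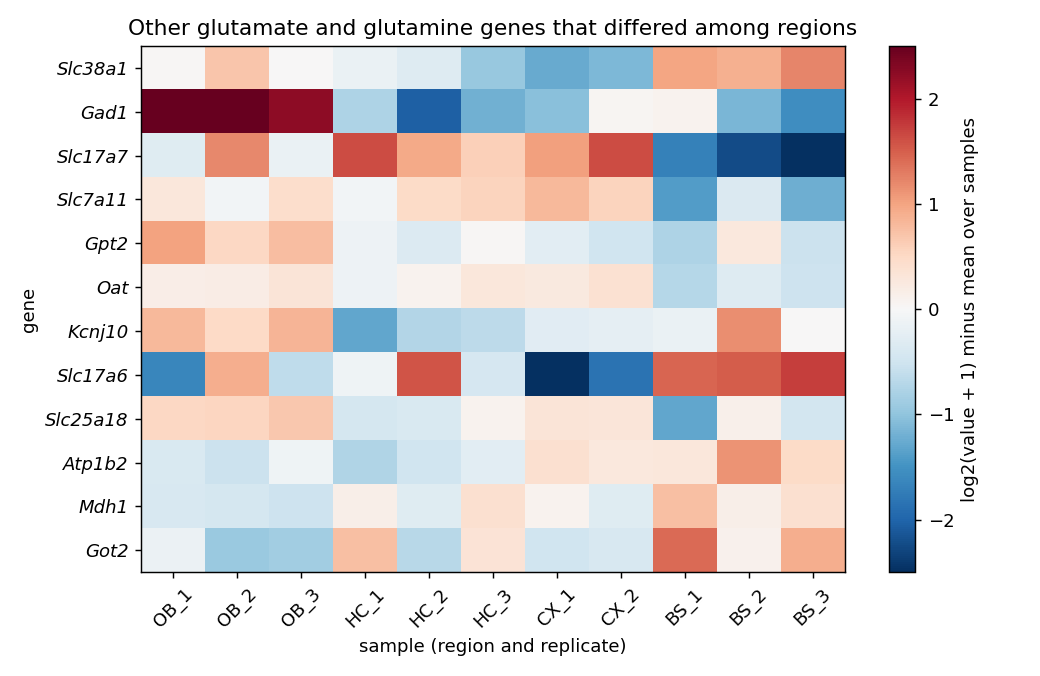
Log2(value + 1) of 12 other glutamate and glutamine genes minus each gene's mean over the 11 samples, by sample; red is above and blue below that mean, and the colours saturate at the ends of the bar. Slc38a1 and Slc17a6 are red and Slc7a11 and Slc17a7 blue in the 3 BS samples, and Gad1 is darkest red in OB.

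Over the 11 samples, which share regions and scaling, the members followed each other to different degrees. Pearson's r of log2(value + 1) was 0.983 between Slc1a3 and Glul, 0.867 between Slc1a3 and Glud1, and 0.803 between Slc1a2 and Slc1a3. Got1 ran opposite to Slc1a3 (r = -0.913) and Glul (r = -0.901). Slc38a3 was nearly unrelated to Slc1a2 (r = 0.03). Among the genes with a mean value over 50, those most like Slc1a3 in their pattern were Tspan7 (0.987), Ndp (0.983) and Glul (0.983), and those most like Glul were Celf2 (0.986), Fbrsl1 (0.984) and Slc1a3 (0.983). The closest to Slc38a3 were Fam184a (0.954), Suclg2 (0.950) and Hs3st3b1 (0.939). Got1 was followed most closely by Idh3a (0.982), Pip4k2c (0.948) and Cdv3 (0.940). For Slc1a5 they were Slc8a1 (0.950), Nalcn (0.911) and Ifit2 (0.899), on few Slc1a5 reads.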

How the data were processed

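RNA from sorted Aldh1l1-eGFP astrocytes of 11 samples was analysed, with groups taken from the brain region each label names. The authors checked reads with FastQC, mapped them to mm10 with STAR 2.5.0a, counted them on UCSC transcripts and divided the counts of each sample by 1 size factor with DESeq2 1.20.0. The deposited unit is therefore a normalized signal, with 24421 entries per sample. Every value above 0 (100%) was a whole number of reads within a tolerance of 0.01, so that counts could be recovered. Recovered depth was 2830746 to 14151670 reads per sample.

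Genes were filtered with edgeR's filterByExpr on the recovered reads, leaving 13875. The main test was limma 3.58.1 (R 4.3.3), two-sided, applied to log2(value + 1) and including a mean-variance trend, with Benjamini-Hochberg adjustment over all genes tested. An F test compared the 4 region means, 6 contrasts compared pairs, and each region was set against the samples of the others pooled, with the thresholds of the study. A fold change on the log2(value + 1) scale understates the change of genes with low values. Ratios were compared with exact permutation tests. On simulated data the procedure was tested with 200 changed genes.

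Alternatives were edgeR 4.0.16 and DESeq2 1.42.0 on the recovered reads, TMM scaling, totals without Rn45s, pseudocounts of 0.25 and 5, no filter, no trend, adjusted p-values, 1 mean per region, leaving out each sample and a replicate block. Scaling to the astrocyte markers, leaving out HC replicate 1 and BS replicate 1 together and a minimum in RPM were added after the values were seen. Gene positions are from GENCODE on GRCm38 and promoters from RefSeq on GRCm38.p6. Python 3.11.15, numpy 2.4.6, pandas 2.3.3 and matplotlib 3.10.9 were used for the other steps. The genes, lists and ratios were chosen with earlier results of these data known. All 9 members are named. Of the pathway list, up to 12 genes with an adjusted p under 0.05 in the F test are named in order of p, with Slc1a1, Slc7a11 and Got2 always included, together with the 3 genes best correlated with each member that passed. One further gene of this list is not reported here. Bcat1 and Slc25a13, the pathway genes under the filter and Pc fall outside this rule and were named after their values were seen.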

Additional observations from a re-analysis of the deposited data

How the results depend on the processing

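No difference past its threshold changed direction. Differences that missed it could change sign, such as that of Slc1a5 between HC and BS, which ran from -1.38 to 0.80 on the log2 scale. Of the single-gene results, 1270 kept their side of the threshold under alternatives other than leaving out 1 sample, 47 gained it and 47 lost it. Member calls over the 6 region pairs, 10 as reported, were 17 with DESeq2 and 16 with astrocyte marker scaling. The 17 include Slc38a5 between BS and OB and between BS and HC, which is only described. Of all 13875 genes, 2075 were called between OB and BS as reported, 2435 with DESeq2 and 1428 with astrocyte marker scaling. Over all genes the other pairs also had more calls with DESeq2 and fewer with that scaling. Members called in OB, 2 as reported, were 1 with edgeR, a pseudocount of 0.25, an adjusted p under 0.05 or a replicate block. In HC, 0 became 1 with DESeq2 and with 1 mean per region. Of all genes, DESeq2 called 419 in HC and 591 in CX, against 178 and 384 as reported. With 1 mean per region these numbers were 666 in HC and 1071 in CX. In CX, 0 became 1 with DESeq2, TMM scaling, totals without Rn45s, a pseudocount of 0.25 or astrocyte marker scaling. It became 1 also without HC replicate 1 and BS replicate 1, and 2 with 1 mean per region. Apart from DESeq2 and 1 mean per region, these settings called 279 to 444 of all genes in CX. In BS, 4 became 5 with DESeq2, 6 with astrocyte marker scaling, 3 with a minimum in RPM, and 2 without HC replicate 1 and BS replicate 1. The counts of 4, 5 and 6 include Slc38a5, which is only described. Where the count was 2, Slc38a5 was not tested, and 917 of all 13520 genes were called. Of all 13875 genes, 1253 were called in BS as reported, 1428 with DESeq2 and 1020 with astrocyte marker scaling. Pathway genes differing among regions, 13 as reported, were 8 without the filter and 5 without a trend. The permutation p of the ratio of Slc38a3 to Slc38a5, from which no conclusion is drawn, was 0.0261 with a pseudocount of 5. The cause was not tested.

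When single samples were left out, members differing among regions numbered 3 to 9, with 9 without BS replicate 2, pathway genes 7 to 16, and pair calls 7 to 22. Members called were 1 to 2 in OB, 0 to 1 in HC, 0 to 1 in CX and 2 to 6 in BS. The highest member counts among regions, over the pairs and in BS include Slc38a5, which is only described. The adjusted permutation p ranged from 0.00190 to 0.0102 for Slc1a2 to Slc1a3, 0.00476 to 0.0324 for Glul to Glud1, 0.00190 to 0.0241 for Glul to Slc1a2 and 0.0448 to 0.200 for Slc38a3 to Slc38a5.

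Whether same-numbered samples came from the same animals could not be told. The deviations of same-numbered samples correlated between -0.160 and 0.2497, with 3 of 15 pairs over 0.1. Those of differently numbered samples correlated between -0.224 and 0.183. Deviations within a region of 2 or 3 samples are tied to each other, so this check cannot decide the question. A replicate block gave 5 members differing among regions, 11 pair calls and 4 calls in BS, and it ended the calls of Slc1a5 in OB and Slc38a1 in CX (unadjusted p = 0.0146 and 0.0115). Other scalings moved the median of all genes, by log2 0.19 to 0.23 with TMM, 0.06 in CX to 0.30 in BS with totals without Rn45s, and -0.15 in CX to 0.08 in BS with the astrocyte markers. The CX had 2 samples, and the values of Slc1a5 and Slc38a5 rested on few reads.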
